A study of Mus musculus with 12 samples.

Results

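Podocytes are the epithelial cells that wrap the capillaries of the kidney glomerulus, and 7 genes that are widely used to recognise them were followed here in the TRACK mouse, a transgenic model of clear cell renal cell carcinoma. The genes were Nphs1, Podxl, Wt1, Synpo, Ptpro, Cdkn1c and Plce1. They were chosen by name, from the symbol that belongs to each Ensembl identifier, and all 7 were found among the 37681 genes of the deposited count table and had enough reads to be tested with 19399 genes in all. The TG+ mice (TRACK, gamma-HIF1alphaM3) carry a mutated HIF1α that stays active in the presence of oxygen and is expressed in the proximal tubule from the GGT promoter, so the transgene is directed to a cell type other than the podocyte. The TG- mice are wild-type littermates. All animals were untreated C57BL/6 males, 18 months old, namely the TG- mice 43-26, 43-50 and 43-76 and the TG+ mice 43-29, 43-49 and 43-75. From each of the 2 kidneys of a mouse a thin slice of the outer cortex gave 1 library, 12 in all, and the reads of both kidneys were summed, so that 3 TG+ mice were compared with 3 TG- mice.

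Podocytes send out interlocking foot processes, and the gaps between them are closed by the slit diaphragm, the last layer of the filter that holds back plasma protein. Nephrin, the product of Nphs1, spans the slit and is linked to an actin cytoskeleton that contains synaptopodin. Podocalyxin gives the cell surface its negative charge, and the mature podocyte has left the cell cycle. Mutations in several of the genes cause inherited nephrotic disease.

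The tissue was cortex rich in proximal tubule in every mouse, and the podocyte genes were a small but well-counted part of it. Between 48052131 and 60506785 reads were counted per mouse, and Plce1, the podocyte gene with the fewest, still had between 285 and 493. The summed level of the 7 genes was 390 to 467 normalized CPM (reads scaled to library size, here after TMM normalization) in TG- mice and 506 to 587 in TG+ mice. Most of it was Podxl, and without that gene the sum was 144 to 183 in TG- mice and 186 to 204 in TG+ mice, so that the groups nearly touched. By comparison, 12 proximal tubule genes summed to between 36318 and 38961 in TG- mice and between 27274 and 30187 in TG+ mice. In slices of mixed tissue, fewer cells of a type and less RNA per cell cannot be told apart. Nothing in the labels says how many glomeruli a slice held.

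The podocyte genes differed little between the genotypes. At the threshold of the study (fold change above 2 or below 0.5 with an adjusted p below 0.01), 0 of the 7 were called with edgeR's quasi-likelihood test, as with DESeq2 and with limma voom, against 3.98% of all genes tested. For each of the 7 the upper bound of the 95% interval lay below a 2-fold increase, and the highest of these bounds was 1.48-fold, for Podxl and Plce1. With an adjusted p below 0.05 and no minimum fold change, Podxl and Synpo were higher in TG+ kidney cortex, so that 2 of 7 were called beside 15.4% of all genes that were higher at this limit. The opposite direction, reached by 10.9% of all genes, was shown by 0 of 7. Without the TG- mouse 43-76 the number higher was 0, without any one of 43-50, 43-29, 43-49 and 43-75 it was 1, and with libraries scaled by size alone it was 4. At an unadjusted p below 0.05 the number was also 4, the further genes being Wt1 and Plce1, beside 21.9% of all genes that were higher at this limit. All 7 log2 fold changes were above 0, as were those of 10042 of the 19399 genes tested. The median of the 7 was 0.23, beside 0.01 for all genes tested. Without TG- 43-76 the number above 0 was 6, and without TG+ 43-49 it was 5.

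**Figure D1:**
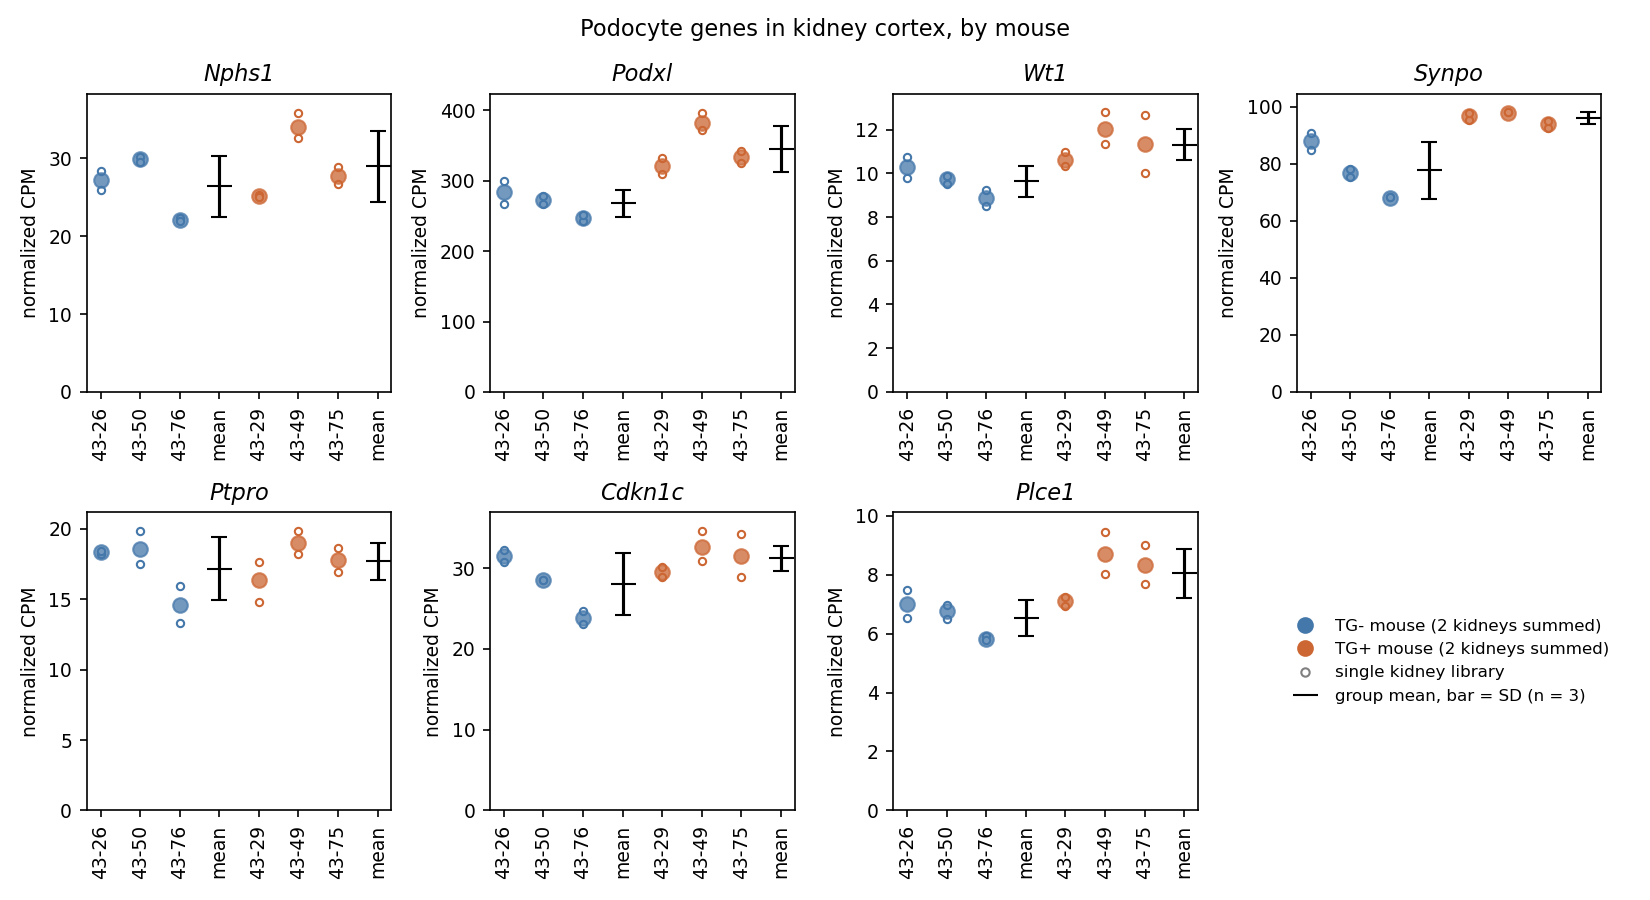
Normalized CPM of each podocyte gene (vertical axis, starting at 0) in each mouse, with filled points for the sum of both kidneys, small open circles for the single kidney libraries and a bar for the mean and SD of 3 mice. The 7 genes share their lowest mouse, TG- 43-76, and their highest, TG+ 43-49, and the groups overlap for Nphs1, Ptpro and Cdkn1c.

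The slit diaphragm gene Nphs1 (ENSMUSG00000006649, chromosome 7), which encodes nephrin, showed 27.2, 29.9 and 22.1 normalized CPM in mice 43-26, 43-50 and 43-76 (TG-) and 25.2, 34.0 and 27.8 in mice 43-29, 43-49 and 43-75 (TG+), an order of mice kept for every gene. The groups overlapped, and the TG- mouse 43-50 lay above 2 of the 3 TG+ mice. The means were 26.4 ± 3.94 in TG- and 29.0 ± 4.54 in TG+ (SD, n = 3 each), a log2 fold change of 0.13 (standard error 0.14, 95% interval -0.19 to 0.46). The adjusted p was 0.520 in edgeR's test. Without mouse 43-49 the difference was -0.0013, so that the sign rests on this animal. In the GENCODE annotation 597 of the 6620 exonic bases of Nphs1 are shared with the antisense gene Nphs1os (165 to 346 reads per mouse, log2 fold change 0.09). A pseudogene, Rps12-ps4, shares another 183 bases. Whether counting used the strand of a read is not given in the sources used here.

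Podxl (ENSMUSG00000025608, chromosome 6) encodes podocalyxin, the sialomucin of the podocyte surface, which is also made by the endothelium of blood vessels. It had the most reads of the 7 genes, with 285, 273 and 247 normalized CPM in the TG- animals and 321, 383 and 334 in the TG+ mice. Each TG+ mouse lay above each TG- mouse, and the same was true of single kidneys, which reached 243 to 300 in TG- mice against 310 to 396 in TG+ mice. The mean rose from 268 ± 19.2 to 346 ± 32.6 (SD, n = 3 each), an increase of 1.29-fold (log2 fold change 0.37, standard error 0.08, 95% interval 0.17 to 0.56, adjusted p = 0.0166 in edgeR's test). Without the TG- mouse 43-76 the log2 fold change was 0.31 and the adjusted p 0.0654 in edgeR's test.

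Ptpro (ENSMUSG00000030223, chromosome 6), a receptor tyrosine phosphatase of the podocyte membrane also known as GLEPP1, had the smallest difference of the 7. The TG- mice had 18.3, 18.6 and 14.6 normalized CPM and the TG+ mice 16.4, 18.97 and 17.8. The groups overlapped almost completely, since 2 of the TG- mice lay between the upper TG+ mice. The log2 fold change was 0.04 (standard error 0.11, 95% interval -0.20 to 0.29, adjusted p = 0.811 in edgeR's test), and it turned to -0.06 without TG- 43-76 and to -0.02 without TG+ 43-49.

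Synpo (ENSMUSG00000043079, chromosome 18) encodes synaptopodin, an actin-binding protein of the foot processes. Its transcript gave 88.1, 76.8 and 68.2 normalized CPM for the TG- mice and 96.7, 97.9 and 93.9 for the TG+ mice. The groups did not overlap, and the TG+ mice lay closer together (SD 2.05, n = 3) than the TG- mice (SD 9.99, n = 3). Synpo mRNA rose by 1.24-fold, or 0.31 on the log2 scale (standard error 0.09, 95% interval 0.10 to 0.51, adjusted p = 0.0393 with edgeR). This call was lost without any one of 5 mice, all but TG- 43-26 (edgeR adjusted p between 0.0849 and 0.106), and with kidney 1 alone (0.0734).

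The transcription factor gene Wt1 (ENSMUSG00000016458, chromosome 2), needed for the development and upkeep of podocytes, had 10.3, 9.74 and 8.86 normalized CPM in the TG- animals and 10.6, 12.01 and 11.3 in the TG+ mice. The groups did not overlap, but the highest TG- and the lowest TG+ mouse lay close together. The log2 fold change of 0.23 (standard error 0.09, 95% interval 0.03 to 0.43) missed the limit, at an adjusted p of 0.0863 from edgeR. With each kidney taken as its own library, which treats the kidneys of a mouse as independent, the adjusted p was 0.0153 in edgeR's test. In the same test it was 0.359 with kidney 1 alone and 0.248 without TG- 43-76. Of 16 alternatives, 2 gave an adjusted p below 0.05.

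Cdkn1c (ENSMUSG00000037664, chromosome 7) encodes p57, the cyclin-dependent kinase inhibitor of the resting podocyte, from an imprinted locus. Its levels of 31.5, 28.6 and 23.9 normalized CPM in the TG- mice and 29.6, 32.6 and 31.5 in the TG+ mice overlapped. The log2 fold change was 0.16 (standard error 0.10, 95% interval -0.07 to 0.39, adjusted p = 0.287 in edgeR's test). It was 0.05 without TG- 43-76 and 0.25 without TG- 43-26. An antisense gene, Gm44732, covers 625 of its 2039 exonic bases.

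Plce1 (ENSMUSG00000024998, chromosome 19), a phospholipase C whose loss is known from inherited nephrotic syndrome, had the fewest reads of the 7. The TG- mice had 6.998, 6.76 and 5.83 normalized CPM and the TG+ mice 7.10, 8.69 and 8.34. The lowest TG+ mouse lay just above the highest TG- mouse. The log2 fold change of 0.30 was close to that of Synpo, with a larger standard error of 0.11 (95% interval 0.04 to 0.56), and its adjusted p was 0.0867 in edgeR's test.

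**Figure D2:**
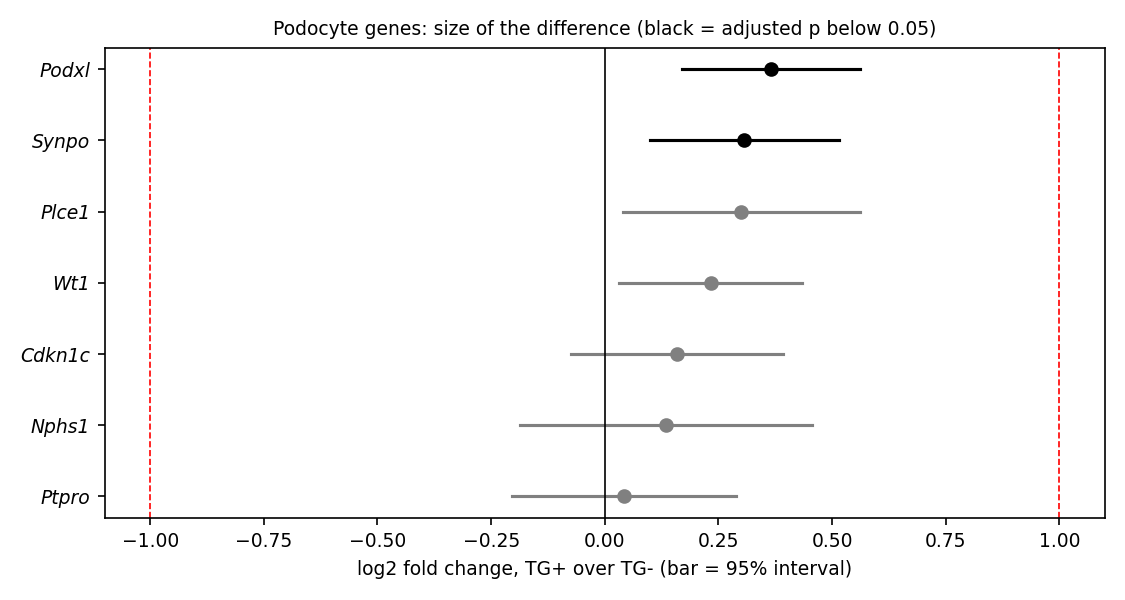
Log2 fold change of each podocyte gene, TG+ over TG- (horizontal axis), with its 95% interval from edgeR's quasi-likelihood fit of 3 against 3 mice, where black marks an adjusted p below 0.05 and dashed red lines mark a 2-fold change. All intervals end below the line for a 2-fold increase, and those of Podxl (0.17 to 0.56) and Synpo (0.10 to 0.51) belong to the genes called.

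For 4 of the 7 genes (Podxl, Wt1, Synpo and Plce1) every TG+ mouse lay above every TG- mouse, a pattern shown by 23.4% of all genes tested. For each of them a 2-sided exact permutation test over the 20 assignments of mice gave p = 0.1, below which a design with 3 mice per group cannot go. For Cdkn1c, Nphs1 and Ptpro the same exact permutation test gave p = 0.2, 0.5 and 0.8. These p-values, like those of the fit across genes, set the difference between the groups against the variation among the mice sampled.

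To compare levels between genes, whose lengths differ, the RPKM values of the deposited table (reads scaled to gene length and library size) were averaged over both kidneys. In TG- cortex Podxl had the highest level at 36.6 RPKM (33.8 to 38.8 over 3 mice), followed by Cdkn1c at 7.42 (6.34 to 8.36), Nphs1 at 2.42 (2.03 to 2.73), Synpo at 1.96 (1.72 to 2.22), Ptpro at 0.943 (0.802 to 1.02), Wt1 at 0.464 (0.428 to 0.496) and Plce1 at 0.397 (0.355 to 0.426). The ranges of Nphs1 and Synpo overlapped in TG- mice and again in TG+ mice, where Nphs1 stood at 2.59 (2.24 to 3.05) and Synpo at 2.37 (2.32 to 2.41), and the order of the means was the same in TG+ cortex, from Podxl at 46.1 RPKM to Plce1 at 0.477. The place of Synpo depends on the gene length, which the table does not state. The quotient of normalized CPM and RPKM was 39.6 for Synpo and 10.9 for Nphs1, while the GENCODE annotation gives them 9533 and 6620 exonic bases. With the level taken as normalized CPM per kilobase of those exonic bases, a measure added after the values were seen, Synpo (8.15, range 7.16 to 9.24 in TG-) stood above Nphs1 (3.99, range 3.34 to 4.51) in each genotype, and the other genes kept their order, from Podxl at 48.9 to Plce1 at 0.408. On the RPKM scale the TG+ ranges of Wt1 (0.498 to 0.566) and Plce1 (0.418 to 0.517) overlapped as well.

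The 7 genes varied together from mouse to mouse, within each genotype. The TG- mouse 43-76 had the lowest level of all 6 mice for 7 of the 7 genes, and the TG+ mouse 43-49 the highest for 7 of the 7. Within TG-, mouse 43-26 was the highest for 5 genes and 43-50 for the other two. Within TG+, mouse 43-29 was the lowest for 6 genes, the exception being Synpo, for which it was 43-75. After the mean of each genotype was subtracted, the 21 pairs of genes had correlations of 0.45 (Plce1 with Synpo) to 0.88 (Podxl with Nphs1) and a median of 0.71 over the 12 libraries. The libraries come from 6 mice and share their scaling, so this is a description of these slices.

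Because the genes moved together, their proportions were examined too, as the ratio of the reads of each gene to those of Nphs1 in the same mouse, a measure chosen after the values had been seen. For Podxl the ratio was 10.4, 9.14 and 11.17 in the TG- mice and 12.7, 11.25 and 12.02 in the TG+ mice. The groups did not overlap but nearly touched, at TG- 43-76 and TG+ 43-49 (exact permutation p = 0.1). The Synpo ratio averaged 2.97 ± 0.347 in TG- and 3.37 ± 0.482 in TG+ (SD, n = 3 each, exact permutation p = 0.4), and the ratios of Plce1 (p = 0.3), Ptpro (p = 0.4), Wt1 (p = 0.5) and Cdkn1c (p = 0.7) overlapped as well in the same exact test. In all, 6 ratios were compared, without adjustment.

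The kidneys of a mouse showed how much 1 slice of cortex can differ from another. In TG+ 43-49 and TG+ 43-75 the second kidney had more of 7 of the 7 podocyte transcripts, with a median log2 ratio of 0.14 in both mice. Elsewhere the members split, with 3, 3 and 4 higher in kidney 2 of TG- 43-26, 43-50 and 43-76 and 4 in TG+ 43-29, and medians between -0.10 and 0.05. The largest ratio was that of Wt1 in TG+ 43-75, 0.34 on the log2 scale, from 10.03 to 12.7 normalized CPM. Ptpro had the largest ratio of the 7 in TG- 43-50 (0.18), TG- 43-76 (0.26) and TG+ 43-29 (0.26). Synpo was nearly equal in both kidneys of each TG+ mouse, with ratios of at most 0.04.

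**Figure D3:**
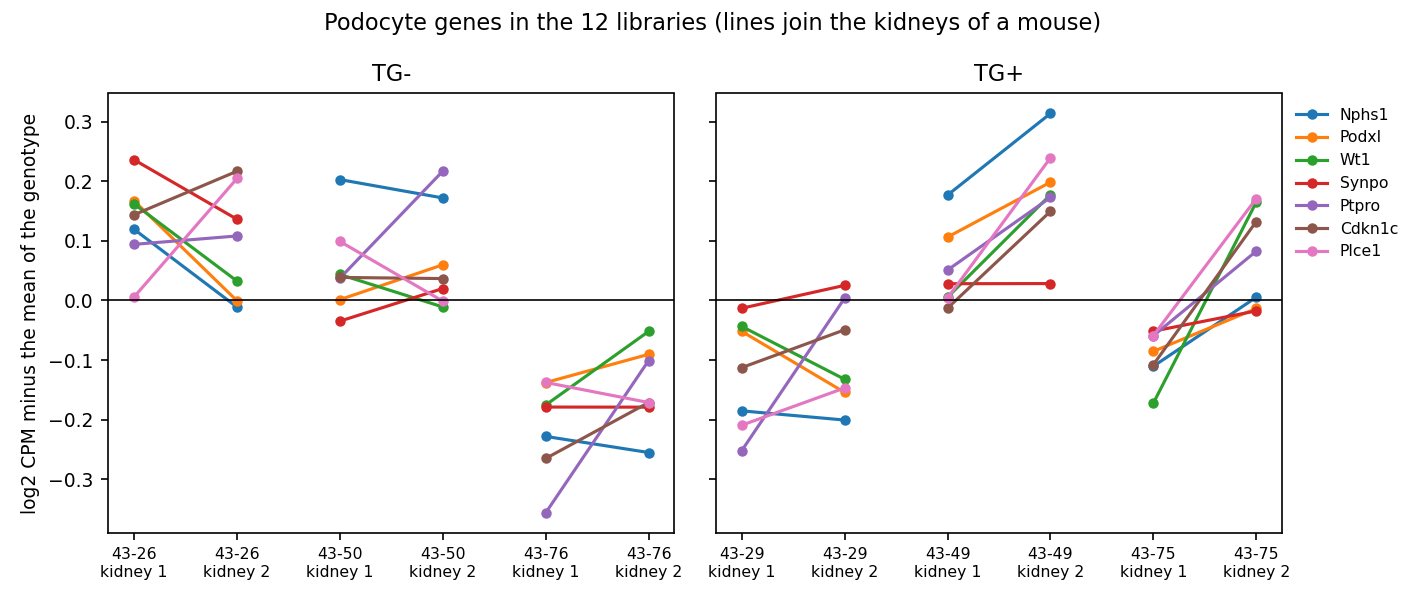
Log2 normalized CPM of the 7 podocyte genes in each of the 12 libraries, less the mean of the gene in that genotype (vertical axis), with a line joining kidney 1 and kidney 2 of each mouse. Both kidneys of TG- 43-76 lie below 0 for every gene, and all lines rise or stay level in TG+ 43-49 and TG+ 43-75.

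Among the 16167 other genes with a mean of at least 1 normalized CPM, those whose deviations over the 12 libraries were among the 10 most like the mean of the 7 included Hdhd3 (r = 0.93), Kpna6 (0.92), Gm5847 (0.91), Lhpp (0.91), Eps15 (0.91), Pdpn (0.90), Timm10b (0.89), Man2a1 (0.89) and Add3 (0.89). Pdpn encodes podoplanin, a surface protein of podocytes. Of a list of further podocyte genes, 29 could be compared in this way, with a median r of 0.49, beside 0.0010 over all genes compared. Thsd7a and Kirrel stood at 0.82, and the lowest was Cd2ap at -0.36. The median was 0.41 for mesangial and juxtaglomerular genes, 0.32 for the glomerular basement membrane, 0.28 for endothelium, 0.24 for proximal tubule (range -0.54 to 0.83), 0.16 for the parietal epithelium of Bowman's capsule, 0.02 for loop, distal tubule and collecting duct and -0.02 for leukocytes.

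The list of further podocyte and slit diaphragm genes held 32 genes, of which 31 were tested, since Kirrel2 had only 2 to 10 reads per mouse. The study threshold was passed by 0 of the 31. With an adjusted p below 0.05, 8 were higher and 4 lower in TG+, beside 15.4% and 10.9% of all genes tested, so that the number lower was close to the share over all genes. The median log2 fold change was 0.26. The genes that rose were Pla2r1 (0.66), the phospholipase A2 receptor of the podocyte surface, Inf2 (0.55), an actin-assembling formin, Dpysl2 (0.51), Thsd7a (0.45), the intermediate filament gene Nes (0.41), Efnb1 (0.26), the integrin gene Itga3 (0.24) and Myo1e (0.23), a motor protein. Of these calls, Efnb1 was lost whichever single mouse was left out, Myo1e, Inf2, Itga3 and Nes without any one of 5 mice and Thsd7a without any one of 4. Inf2 (0.35 at the lowest with single mice left out) was not called with limma voom either, nor Efnb1 and Myo1e with upper-quartile scaling, nor Dpysl2 with kidney 2 alone. The genes that fell were Npnt (-0.48), which encodes the matrix protein nephronectin, Arhgap24 (-0.43), Rhpn1 (-0.42) and the ion channel gene Clic5 (-0.36). Several genes of the list are also used by other cells of the cortex. Their summed level was 2108 to 2313 normalized CPM in TG- and 2114 to 2148 in TG+, so the ranges overlapped.

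Kirrel3 had the highest value of that list, 0.71 (0.37 to 1.12 with single mice left out), at about 0.19 normalized CPM in TG- and 0.30 in TG+, and was not called (adjusted p = 0.288 in edgeR's test). The lowest was Npnt.

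The neighbours of the podocyte in the glomerulus were compared with the same fit. Counts of genes higher or lower, here and in the lists that follow, refer to an adjusted p below 0.05. Of all genes tested, 15.4% were higher and 10.9% lower at this limit. The glomerular basement membrane, on which the foot processes stand, is built by podocytes and endothelium, and of 11 of its genes 5 were higher and 1 lower (median log2 fold change 0.28). The nidogen gene Nid1 (0.79), the perlecan gene Hspg2 (0.65), Tinagl1 (0.61) and the laminin genes Lamb2 (0.42) and Lamc1 (0.36) rose. Col4a4 (-0.19), a chain of the mature collagen IV network, was called lower, but that call was lost whichever single mouse was left out. The summed level was 968 to 1119 normalized CPM in TG- and 1177 to 1190 in TG+.

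Of 6 genes of the parietal epithelium, which lines Bowman's capsule opposite the podocytes, 4 were higher, namely Akap12 (0.78), the tight junction gene Cldn1 (0.68), Cdh6 (0.65) and Alcam (0.51). The lowest was Pax2 (-0.12, or -0.19 to -0.07 with single mice left out), and the sum was 158 to 178 normalized CPM in TG- and 213 to 227 in TG+. Of 9 mesangial and juxtaglomerular genes, 5 were higher (Serpine2 0.80, the growth factor receptor gene Pdgfrb 0.74, Fhl2 0.69, Itga8 0.52 and Des 0.51), the lowest being Agtr1a (-0.18), with sums of 277 to 302 and 328 to 401. Their median was 0.52, and that of the parietal list 0.58. The calls of Cdh6 and Des were each lost without any one of 4 mice, that of Akap12 without TG- 43-50 or TG- 43-76, and those of Alcam and Pdgfrb without TG- 43-76 or TG+ 43-75.

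Of 13 endothelial genes, 12 were higher in TG+, with a median log2 fold change of 0.66, from Eng (0.44) to Nos3 (0.92), the endothelial nitric oxide synthase gene. Between them stood Flt1 (0.80), Emcn (0.77), Kdr (0.72), Pecam1 (0.71), Tie1 (0.70), Tek (0.66), Cdh5 (0.62), Ptprb (0.50), Plat (0.49) and Ehd3 (0.48), a gene of the glomerular endothelium. Gata5 (0.29, or 0.10 to 0.62 with single mice left out) was not called. Without TG- 43-76 the calls of Eng and Ptprb were lost, and that of Ptprb also without TG- 43-50. The summed endothelial level was 549 to 699 normalized CPM in TG- mice, below the 911 to 995 in TG+ mice. Podxl, which endothelial cells also express, was higher in TG+ as well, and the part of the endothelial increase in the Podxl difference was not tested.

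**Figure D4:**
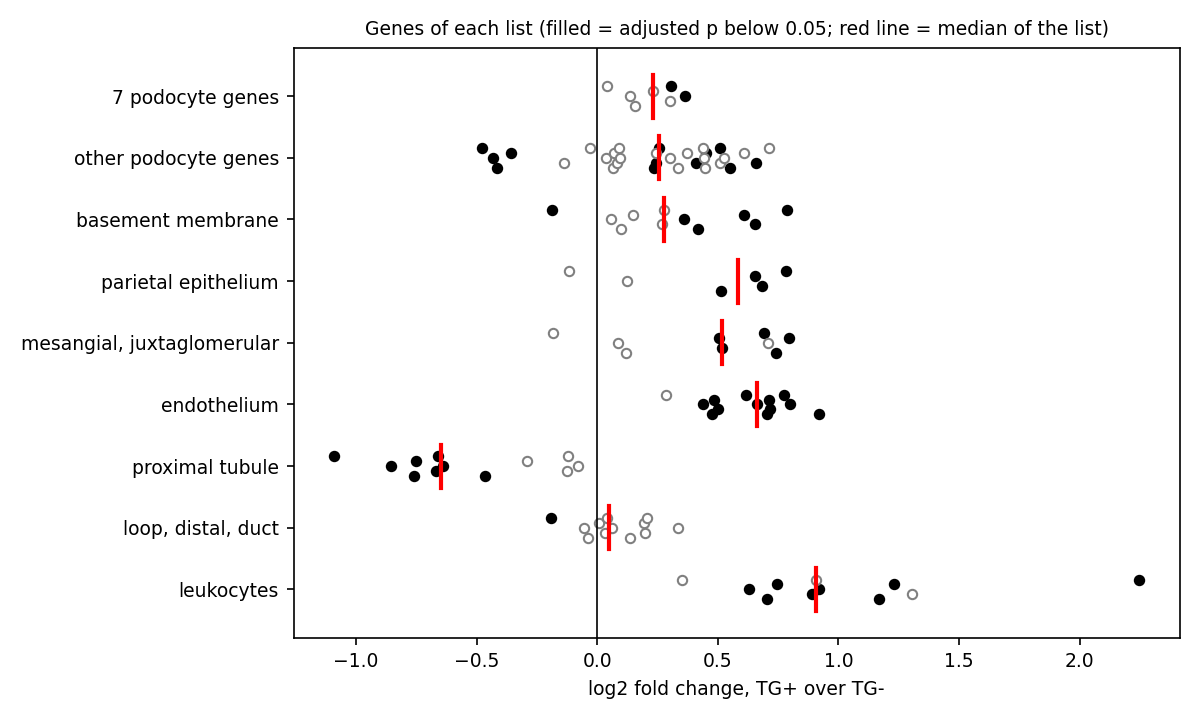
Log2 fold change, TG+ over TG- (horizontal axis), of each tested gene of the 7 podocyte genes and of 8 other lists of kidney genes, with filled points for an adjusted p below 0.05 and a red line at the median of each list. The median of the 7 podocyte genes (0.23) lies near those of the other podocyte genes (0.26) and the basement membrane (0.28), below that of endothelium (0.66) and above that of proximal tubule (-0.65).

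Outside the glomerulus, 8 of 12 proximal tubule genes were lower in TG+ and 0 higher, with a median of -0.65. They were Slc22a6 (-1.09), the organic anion transporter gene and the only one of them past the study threshold, Slc22a8 (-0.86), Slc34a1 (-0.76), Slc7a13 (-0.75), Slc13a3 (-0.67), Miox (-0.66), Aqp1 (-0.64) and the megalin gene Lrp2 (-0.46). The highest value was that of Kap (-0.08), which turned to 0.04 when libraries were scaled by size alone. In the list for loop, distal tubule and collecting duct, 1 of 12 genes was called lower, near the 10.9% of all genes. It was Aqp3 (-0.19), a call lost in 9 of 16 alternatives, among them without any one of 5 mice. The highest was Aqp2 (0.34, not called in the fit reported but called in 4 of 16 alternatives, and 0.25 to 0.51 with single mice left out), and the median of the list was 0.05. The summed level of that list lay between 4385 and 4449 normalized CPM in TG- mice and between 4033 and 5371 in TG+ mice. Of 11 leukocyte genes, all of them detected, 8 were higher (Cd79a 2.25, Cd79b 1.23, Cd3e 1.17, Ptprc 0.92, Cd68 0.89, Itgam 0.74, Cd74 0.70 and Csf1r 0.63), and the lowest was Adgre1 (0.35, or 0.12 to 0.60 with single mice left out). Together they reached 266 to 336 normalized CPM in TG- mice and 485 to 528 in TG+ mice. The part of these shifts in the values of the podocyte genes was not tested.

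Relatives of the podocyte genes, in the same gene families, were compared too. The kinase inhibitor gene Cdkn1a, which encodes p21 and belongs to the same family as Cdkn1c, reached 78.1, 56.9 and 67.0 normalized CPM in TG+ animals against 15.4, 8.32 and 9.99 in TG- animals, which is 2.59 on the log2 scale (standard error 0.22, edgeR adjusted p = 2.45e-04), past the study threshold. Cdkn1b, which encodes p27, was at -0.06 (-0.11 to -0.02 with single mice left out, adjusted p = 0.517 in edgeR's test). Of 5 proliferation genes, 4 were higher, Ccnb1 (1.97), Cdk1 (1.33), Mki67 (1.12) and Top2a (1.12), while Pcna (0.05) was not called. Ccnb1 had only 4 to 8 reads per mouse in TG- and 11 to 39 in TG+. It passed the filter on low counts through the TG+ mice and was tested in only 13 of 16 alternatives, so its value is a description only. The calls of Ccnb1 and Top2a were lost without any one of 4 mice and that of Mki67 without 43-26 or 43-50, and leaving out a mouse moved Top2a to values between 0.74 and 1.33. Of 6 tested genes of the imprinted neighbourhood of Cdkn1c, Slc22a18 (-0.64) fell, beside 10.9% of all genes, and 0 rose, beside 15.4%. The highest was Igf2 (0.31, or 0.06 to 0.45 with single mice left out). H19 had 0 to 19 reads per mouse and was not tested.

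Cd34, a relative of Podxl that is known from endothelium and blood progenitors, rose (0.87, adjusted p = 0.00241 in edgeR's test), and Podxl2 stood at 0.49 without a call. Of the relatives of Synpo, Synpo2 (0.64), a muscle protein, rose, and Synpo2l was at -0.14. Of 3 tested receptor phosphatases related to Ptpro, Ptprb (0.50) rose, Ptprj (-0.26) fell and Ptprq (0.35) was not called. Of 10 tested phospholipase C genes related to Plce1, Plcb2 (0.63) and Plch1 (0.55) rose and Plcb1 (-0.26) fell, with a median of 0.09. These counts of 2 higher and 1 lower were close to the 15.4% and 10.9% of all genes. The calls of Synpo2, Plcb2 and Plch1 were each lost without any one of 4 mice. Those of Plcb1 and Ptprb were lost without either of the TG- mice 43-50 and 43-76, and those of Plcb1 and Ptprj with libraries scaled by size alone.

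The DNA before the start of the podocyte genes was examined for the letters GCGTGGG (the core bound by WT1 and EGR proteins, which contains GCGTG) and for ACGTG and GCGTG (the core of hypoxia response elements). RefSeq windows on GRCm38.p6 from 250 bases before to 50 after the start were at hand for 3 of the 7 genes, Ptpro, Nphs1 and Plce1. On both strands GCGTGGG was found in 0 of the 3 windows and in 5.04% of 32851 windows, ACGTG in 0 of 3 and in 19.6%, and GCGTG in 0 of 3 and in 32.4%. The windows held 5, 6 and 8 CG dinucleotides in the order given, beside a median of 7. The 100 bases before the RefSeq start of Ptpro (GRCm38.p6, chr6:137252199-137252298, + strand), the one of the 3 stretches that touches no annotated exon of its own gene, are shown as an example of the DNA searched, with CG in capitals.
Ptpro: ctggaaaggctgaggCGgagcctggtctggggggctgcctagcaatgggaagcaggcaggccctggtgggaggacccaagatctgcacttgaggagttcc
It holds 1 CG. The absence of these letters applies to these windows alone.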

How the data were processed

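The authors sequenced 51-bp single-end reads of 12 mouse kidney cortex libraries and, per the paper, relied mostly on the Tuxedo tools. The submitters' processing notes name the build mm9. The annotation, the counting program and the use of strand are not given in the sources used here, so only chromosomes are given for genes. The deposited table of 37681 Ensembl genes holds raw counts per gene and library. The authors also deposited RPKM values, scaled by a method the header calls BUQ and proportional to the count plus 1, which were used only to compare levels between genes (gene lengths are the authors'). The 12 columns of log2 RPKM and the columns of the authors' own comparison (fold changes, averages, p-values and q-values) were not used.

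Counts of the 2 kidneys of a mouse were summed and tested with edgeR 4.0.16 (R 4.3.3): filterByExpr, TMM, quasi-likelihood test, Benjamini-Hochberg adjustment over 19399 genes. The table gives 21888584 to 33704850 reads per library, TMM factors were 0.944 to 1.07, and kidney 1 and kidney 2 were not duplicates (chi-square per gene 1.95 to 7.30 in each mouse). Intervals of fold changes come from the fit, with a confidence of 95%. Exact permutation tests used log2 CPM. The procedure was tested on simulated data. Symbols and exons came from GENCODE M21 on GRCm38, matched by identifier for 32642 genes, and promoter windows from RefSeq. The named genes are all 7 members, the members of each other list with an adjusted p below 0.05 and its highest and lowest gene, and the 10 genes most like the members, except that 3 genes are not reported here and were left out of the lists. Genes named beyond this rule (Cdkn1b, relatives without a call, further likeness values, Pcna and genes with too few reads) were chosen after their values were seen, as were the ratio to Nphs1 and the level per exonic length. The members, lists and tests were chosen with earlier results of these data known. Alternatives were DESeq2 1.42.0, limma voom (limma 3.58.1), other scalings, no filter, other units, a block, other limits and leaving out each mouse. Tables were made with pandas 2.3.3, scipy 1.17.1 and numpy 2.4.6 in Python 3.11.15, and plots with matplotlib 3.10.9.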

Additional observations from a re-analysis of the deposited data

How the results depend on the processing

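The median log2 fold change of the 7 podocyte genes, 0.23, lay between 0.18 and 0.28 with single mice left out, at 0.16 with kidney 1 alone and at 0.33 with kidney 2 alone. With libraries scaled by size alone it was 0.35, while the median of all genes moved from 0.01 to 0.13, so that the difference between both was 0.22 as before. At the study threshold 0 of the 7 were called under each alternative, and 2 once the minimum fold change was dropped at an adjusted p of 0.05. The number with an adjusted p below 0.05 was 2 with DESeq2, limma voom, upper-quartile scaling, centring on the median gene, no filter and kidney 2 alone. It was 4 with scaling by library size alone and with each kidney as its own library (Plce1 and Wt1 added), where 28.1% and 45.9% of all genes were called in either direction against 26.2% in the fit reported, and 1, Podxl, with kidney 1 alone. With single mice left out it ranged from 0 to 2, being 0 without TG- 43-76 and 1 without TG- 43-50 or without any of the TG+ mice 43-29, 43-49 and 43-75. Leaving out a mouse lowered the share over all genes as well, to between 16.2% and 24.4%. The name of the deposited table lists the mice as 3 pairs, and a replicate block for these pairs also gave 2 calls (median 0.23), with 30.5% of all genes called in either direction. The pairs' deviations correlated at 0.34 (43-26 with 43-29), 0.30 (43-50 with 43-49) and -0.02 (43-76 with 43-75). Mice of different pairs and genotypes correlated at -0.35 to 0.04. The value of 43-76 with 43-75 lay within that range, so the pairing is not established. The sign turned for Nphs1 without 43-49 (-0.0013, at the highest 0.23 with another mouse left out), Ptpro without 43-76 (-0.063) and without 43-49 (-0.016, at the highest 0.10), and Synpo2l with kidney 2 alone (0.035). With single mice left out it also turned for Kap (range -0.14 to 0.00061), Pcna (-0.020 to 0.11) and Synpo2l (-0.73 to 0.18). With library size alone it turned for Pax2 (0.0038), Kap (0.041) and Cdkn1b (0.061). For Nphs1, Ptpro and Cdkn1c, whose intervals include 0, a difference was not detectable with 3 mice per group.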
